A study of Mus musculus with 12 samples.

Results

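The 5 genes that encode the subunits of the interleukin-12 family, Il12a, Il12b, Il23a, Il27 and Ebi3, were examined in the RNA of bone marrow-derived macrophages (BMDMs). They were found by gene symbol among the 43131 genes of the deposited table, and all 5 were present. Marrow cells of C57BL/6 mice were cultured with M-CSF, the growth factor that drives macrophage differentiation, at 50 ng/mL over 7 days. Cells marked LPS+ were then given LPS, a bacterial cell wall component sensed through TLR4, at 1 µg/mL for 6 h, and cells marked LPS- were not. All mice carried floxed tlr4 alleles. The tlr4f/f-lysM-cre mice also carried Cre under the lysM (Lyz2) promoter, which is active in macrophages, neutrophils and other myeloid cells, and tlr4f/f mice without Cre were their controls. There were 12 libraries, 3 in each of 4 groups. Group A is headed LPS- tlr4f/f in the deposited table. Group B carries the heading LPS- tlr4f/f-lysM-cre. Group C is the one headed LPS+ tlr4f/f, and group D has the heading LPS+ tlr4f/f-lysM-cre. The sources used here do not state whether each library came from a separate mouse, so the p-values measure the spread between these libraries, which may be technical.

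The cytokines of this family are dimers that share chains. IL-12 joins the Il12a product to the Il12b product, IL-23 joins the Il23a product to the same Il12b chain, and IL-27 joins the Il27 product to EBI3. EBI3 also pairs with the Il12a chain to give IL-35. Macrophages and dendritic cells make IL-12, IL-23 and IL-27 after sensing microbes, and these cytokines steer T cell responses, IL-12 towards Th1 cells and IL-23 towards the maintenance of Th17 cells.

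The headings of groups B and C need care, because marker genes of the design went against them. Tlr4, the floxed gene, had between 4486 and 9136 counts in group A and between 3041 and 4367 in group B, but between 1086 and 1484 in group C and between 891 and 1191 in group D. These counts cover the whole transcript and not its floxed part alone. Lyz2, the gene into which Cre is inserted, split the libraries in the same way, with at least 221787 counts in the 6 libraries of groups A and B (headed LPS-) and at most 3272 in the 6 of groups C and D (headed LPS+). Il1b, a cytokine gene induced by LPS, had at most 405 counts in the 6 libraries of groups A and C (headed tlr4f/f) and at least 52432 in the 6 of groups B and D (headed tlr4f/f-lysM-cre). If the headings of groups B and C are exchanged, Tlr4 and Lyz2 were low in the 6 Cre libraries and Il1b was high in the 6 LPS libraries. Which reading holds cannot be told from the labels, so groups are given by letter and each comparison is named in both readings. The comparison of group D with group A is the same in both.

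Libraries held between 33577087 and 56445268 counts over 1 transcript row per gene. Levels are given as CPM, counts scaled to library size, with TMM factors, which correct for differences in library composition. Macrophage markers summed to between 3913 and 9239 CPM in the 12 libraries, T and NK cell markers to at most 1.87, and B cell markers to at most 1.28. The 6 dendritic cell markers summed to between 35.5 and 264 CPM in groups A and B and between 571 and 717 CPM in groups C and D, nearly all of it Itgax, which macrophages also express. Flt3 and Siglech had no library above 3 counts, and Clec9a and Zbtb46 had at most 18 and 19. Xcr1, the remaining dendritic marker, followed the members, with 75 to 176 counts in groups B and D and at most 15 in groups A and C, and was a DEG in D against A (adjusted p = 0.00640), B against A (adjusted p = 0.00651) and D against C (adjusted p = 4.98e-06). Ly6g, which defines neutrophils, had no library above 3 counts. The neutrophil list summed to 27.8, 14.95 and 192 CPM in replicates 1, 2 and 3 of group B, to 13.7, 11.3 and 0.635 in group A and to at most 7.67 elsewhere. The fibroblast list summed to 594, 84.6 and 951 CPM in group B, to 409, 36.1 and 6.22 in group A and to at most 30.0 elsewhere. The part of these markers in the results below was not tested. In bulk RNA, more cells that express a gene and more RNA per cell cannot be told apart.

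Il12a, which encodes the chain found only in IL-12 and IL-35 (chr3:68690644-68698547, plus strand, mm10), was transcribed almost only in the 6 libraries of groups B and D. It had 752, 306 and 200 counts in replicates 1 to 3 of group B and 246, 346 and 309 in group D, which corresponded to 20.2, 9.57 and 6.23 CPM and to 5.69, 9.54 and 6.86 CPM. It had 2, 1 and 0 counts in group A and 0 counts in all 3 libraries of group C. Groups B and D overlapped each other, with means of 11.99 ± 7.28 and 7.36 ± 1.98 CPM (SD, n = 3), and neither overlapped the other groups.

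Il23a, which encodes the chain particular to IL-23 (chr10:128296139-128298752, minus strand), showed the same split at much lower counts. It had 100, 15 and 72 counts in group B and 21, 14 and 19 in group D, against 0, 1 and 0 in group A and 5, 0 and 0 in group C. As CPM, the means were 1.80 ± 1.17 and 0.431 ± 0.0503 (SD, n = 3) in groups B and D. Replicate 2 of group B, at 0.469 CPM, lay within the range of group D, and no library of either group overlapped groups A and C.

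Il27, which encodes the alpha chain of IL-27 (chr7:126589010-126594941, minus strand), was detected in every library and had the widest range in CPM of the alpha chains. It reached 452, 426 and 187 CPM in group B and 44.6, 54.7 and 38.4 CPM in group D. In group A it was at 1.71, 1.24 and 0.505 CPM, and in group C at 0.691, 0.794 and 0.809 CPM. The first of these groups stood above the second, and the second above both others, without overlap, whereas groups A and C overlapped. Il27 overlaps Apobr on the opposite strand and the library kit does not mark strand, so reads in the overlap cannot be assigned to either gene.

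Il12b, which encodes the chain shared by IL-12 and IL-23 (chr11:44400063-44414033, plus strand), had the largest contrast in counts. It had 19179, 20995 and 3749 counts in group B (515, 657 and 117 CPM) and 4295, 4497 and 2358 in group D (99.3, 124 and 52.4 CPM). Only 15, 25 and 0 counts were found in group A and 2, 3 and 4 in group C. Replicate 3 of group B lay within the range of group D, while groups A and C were below every other library.

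Ebi3, which encodes the beta chain of IL-27 (chr17:55952640-55957022, plus strand), differed from the other members in being well expressed in all 12 libraries. It was at 231, 254 and 133 CPM in group B and at 73.9, 72.4 and 55.7 CPM in group D. The libraries of group A had 39.7, 28.7 and 31.1 CPM and group C had 15.1, 16.8 and 14.1 CPM. No neighbouring groups overlapped in this order, so Ebi3 was the only member whose 4 groups were all separate. Ebi3 overlaps Gm16712 on the opposite strand, with the same limit on the assignment of reads.

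**Figure D1:**
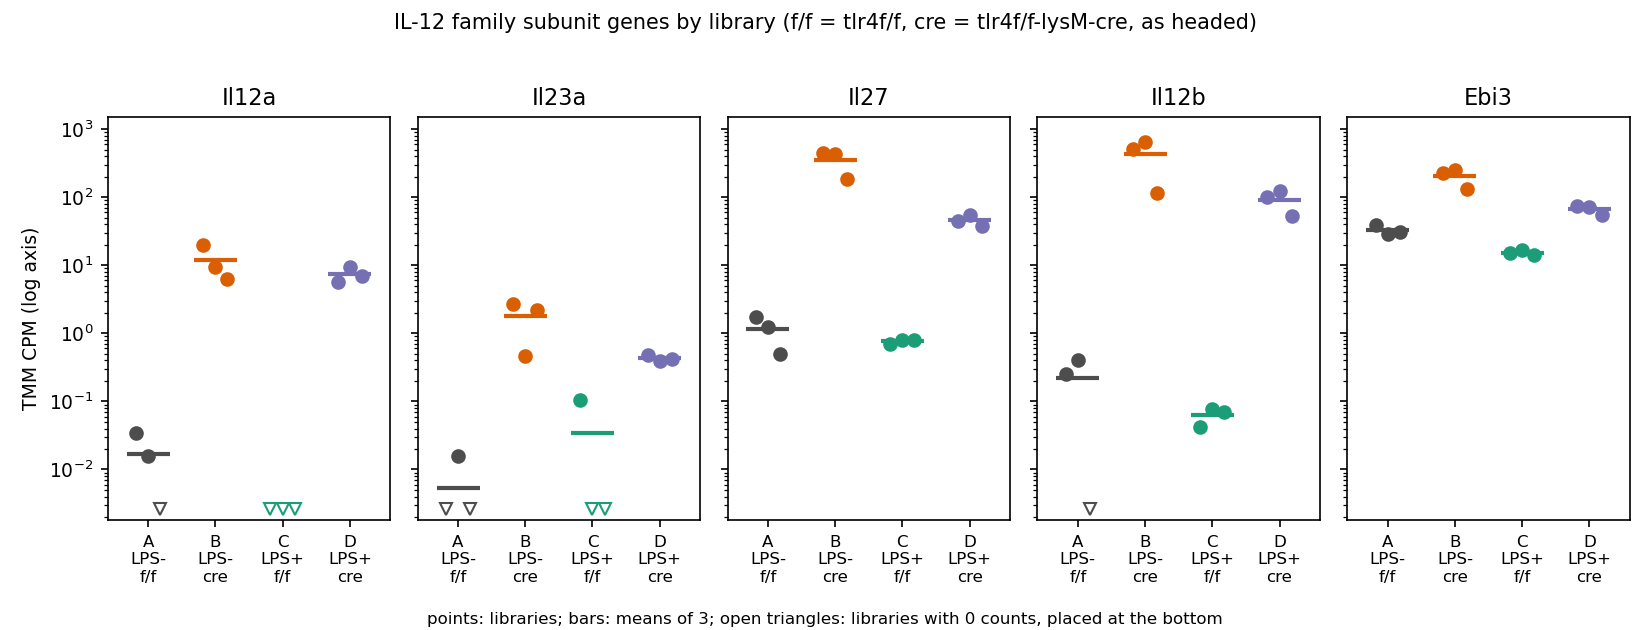
TMM CPM (log axis) of the 5 subunit genes in each of the 12 libraries, with replicates 1 to 3 from left to right, bars at the means of 3 libraries and open triangles for libraries with 0 counts. The 6 libraries of groups B and D lie above the 6 of groups A and C for every gene, and Ebi3 alone stays above 14 CPM throughout.

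The order of the group means was the same for Il12a, Il12b, Il27 and Ebi3, namely group B, group D, group A and group C from high to low. Il23a differed only in the order of the last pair, both with 5 counts or fewer per library. Between the highest and lowest replicate of group B, CPM differed 5.72-fold for Il23a, 5.63-fold for Il12b, 3.24-fold for Il12a, 2.41-fold for Il27 and 1.92-fold for Ebi3. In group D these spreads were between 1.26-fold for Il23a and 2.37-fold for Il12b. Replicate 3 of group B was the lowest for 4 of the members, the exception being Il23a, where replicate 2 was lowest.

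The promoters of Il12b and Ebi3 are shown because both genes were high in the same libraries but only Ebi3 had a high level in the others. They are the 250 bases before the RefSeq transcript start (GRCm38.p6, the assembly of mm10), both on the plus strand, chr11:44399813-44400062 for Il12b and chr17:55952373-55952622 for Ebi3. Capitals mark matches on either strand to 2 motifs of macrophage transcription factors, PU.1 (searched as GAGGAA) and NF-kB (searched as its 10-base consensus).
Il12b: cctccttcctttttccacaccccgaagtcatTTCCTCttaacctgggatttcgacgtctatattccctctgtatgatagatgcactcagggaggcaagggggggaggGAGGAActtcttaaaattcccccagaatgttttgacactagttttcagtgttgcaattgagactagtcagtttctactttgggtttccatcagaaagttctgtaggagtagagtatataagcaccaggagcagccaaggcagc
Ebi3: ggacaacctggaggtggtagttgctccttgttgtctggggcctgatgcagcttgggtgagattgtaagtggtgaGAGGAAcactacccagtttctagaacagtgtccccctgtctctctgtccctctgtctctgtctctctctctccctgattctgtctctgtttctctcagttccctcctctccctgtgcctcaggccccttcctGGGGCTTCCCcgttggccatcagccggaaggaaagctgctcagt
The Il12b window held 2 PU.1 matches, at 219 to 214 and at 143 to 138 bases before the start. The Ebi3 window held 1 PU.1 match at 176 to 171 bases and 1 NF-kB match at 44 to 35 bases before the start. Of 32817 promoter windows of this length in the same table, 23.3% held the PU.1 letters and 3.9% the NF-kB consensus. The letters of AP-1 (TGANTCA, in 6.75% of windows), of the interferon-stimulated response element (GAAANNGAAA, in 2.97%) and of C/EBP (TTGCNNAA, in 9.57%) were in neither window. The motif matches did not overlap each other. The 2 windows of Il12a, from 2 RefSeq starts, held none of the 5 motifs. A match is a description of the letters and not a bound site. The lack of a match does not mean that a window holds no site for a factor. Only these fixed patterns were searched, and sites that differ from them by a base are missed.

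To compare LPS-treated BMDMs of the Cre genotype with unstimulated controls, group D was set against group A, which changes genotype and LPS together in both readings. All 5 members were higher and were DEGs, which here means more than 2-fold apart with an adjusted p under 0.01 in edgeR's quasi-likelihood test. Among all 14584 genes tested, 13.4% were DEGs and 6.92% were DEGs with higher values. Il12b rose by a log2 fold change of 8.65 (SE 0.846, adjusted p = 0.00101) and Il27 by 5.31 (SE 0.462, adjusted p = 0.000694). Il12a rose by 8.55 (SE 0.602, adjusted p = 0.000354) and Il23a by 5.73 (SE 0.801, adjusted p = 0.00294), but these rest on 3 counts and 1 count in the 3 libraries of group A. From the summed counts, the ratio was 420 for Il12a (95% exact interval 143 to 2042) and 75.6 for Il23a (95% exact interval 13.0 to 3040), which covers counting error only. Ebi3 rose by 1.02 (SE 0.170, adjusted p = 0.00525), the smallest change of the family, from 33.1 ± 5.77 to 67.3 ± 10.1 CPM (SD, n = 3). The median log2 fold change was 5.73 over the members and -0.05 over all genes. Il12a, Il12b and Il23a passed the filter on low counts only through group D. Their higher direction was thus largely set by that filter, which limits what the count of members and the median show. Without any 1 of the 3 libraries of group D, 3 members were DEGs, since Il23a and Ebi3 then had adjusted p-values between 0.0115 and 0.0283. What share of all genes kept a call in these smaller fits is not given here. The lost calls can thus not be read as particular to Il23a and Ebi3. Leaving out group A replicate 2 or 3 took the Ebi3 change below 2-fold, to log2 values of 0.92 and 0.97.

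**Figure D2:**
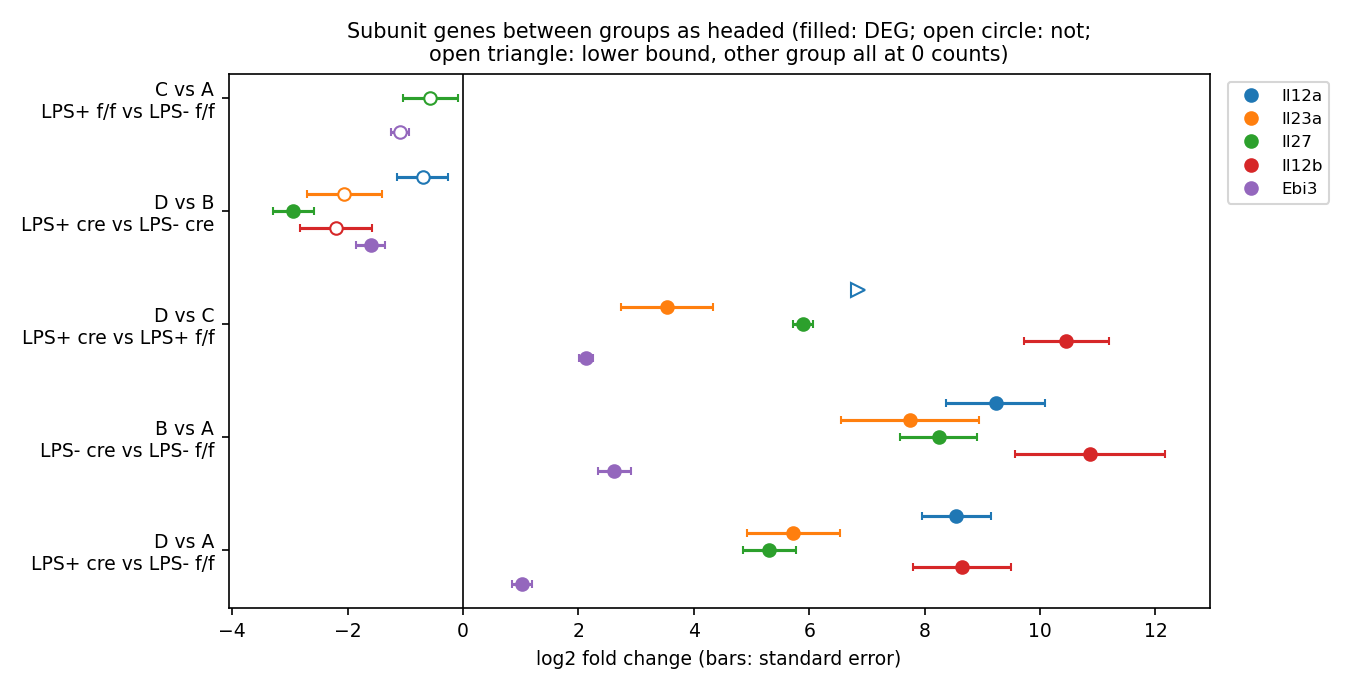
Log2 fold change of each subunit gene between groups as headed, with bars of 1 standard error. Filled circles are DEGs, open circles are not, and the open triangle is the lower bound for Il12a against a group with 0 counts. Every member lies to the right of 0 in the lower 3 comparisons and to the left in the upper 2, in the first of which 3 members were too low to be tested.

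Group B was then set against group A. As headed, this compares genotypes without LPS. With the headings exchanged it is the response of tlr4f/f BMDMs to LPS. All 5 members were DEGs with higher values, against 17.1% of 14635 genes called and 9.25% called higher. The log2 fold change was 10.87 for Il12b (SE 1.30, adjusted p = 0.00194) and 8.25 for Il27 (SE 0.668, adjusted p = 0.000671). For Il12a it was 9.23 (SE 0.859, adjusted p = 0.000919) and for Il23a 7.75 (SE 1.20, adjusted p = 0.00401). By summed counts the ratio was 721 for Il12a (95% exact interval 246 to 3501), and for Il23a, with a single count in group A, 322 (95% exact interval 57.0 to 12767). Ebi3 rose by 2.62 (SE 0.283, adjusted p = 0.00131), from 33.1 to 206 CPM. The median over the members was 8.25, against -0.08 over all genes. As in the comparison above, Il12a, Il12b and Il23a passed the filter only through the higher group, here group B, so their direction was largely set by it. The Il23a call was lost without any 1 of 5 libraries, with adjusted p-values between 0.0145 and 0.0196. It stayed when replicate 2 of group B, its lowest library there, was left out.

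Between group D and group C, all 5 members were again DEGs with higher values, against 21.7% of 14540 genes called and 10.8% called higher. As headed, this is the difference between the genotypes with LPS. With the headings exchanged it is the response of tlr4f/f-lysM-cre BMDMs to LPS. Il12a, at 0 counts in all libraries of group C, was at least 116-fold higher when 3 counts per library are taken as the limit (adjusted p = 9.15e-08). Il12b rose by a log2 fold change of 10.46 (SE 0.743, adjusted p = 0.000243), with 11150 counts against 9 and a ratio of 1442 (95% exact interval 759 to 3153). Il27 rose by 5.89 (SE 0.166, adjusted p = 3.35e-10) and Ebi3 by 2.13 (SE 0.116, adjusted p = 2.84e-07), both with small errors. Il23a rose by 3.53 (SE 0.802, adjusted p = 0.00209) on 54 against 5 counts, a ratio of 12.6 (95% exact interval 5.07 to 40.3). The median was 5.89 over the members and -0.02 over all genes. Here too, Il12a, Il12b and Il23a passed the filter only through group D, with the same limit on their direction. All 5 counts of Il23a on the low side came from replicate 1 of group C. Without that library its log2 fold change was 7.27 and it stayed a DEG, but this is fitted against 0 counts and so depends on the prior count. Without replicate 2 of group C it was 3.09 (adjusted p = 0.0110), and without replicate 3 it was 2.85, still a DEG.

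Both groups with high subunit RNA were then compared with each other, group D against group B. As headed, this is the response of tlr4f/f-lysM-cre BMDMs to LPS, and with the headings exchanged it is the effect of the Cre genotype on LPS-treated BMDMs. All 5 members had lower values in group D, and 2 of them, Il27 and Ebi3, were DEGs, against 6.08% of 14234 genes called and 3.65% called lower. The IL-27 chains fell by 2.94 for Il27 (SE 0.349, adjusted p = 0.00313) and by 1.60 for Ebi3 (SE 0.250, adjusted p = 0.00699) on the log2 scale. The chains of IL-12 and IL-23 did not pass, with log2 fold changes of -2.20 for Il12b (SE 0.627, adjusted p = 0.0423), -2.06 for Il23a (SE 0.650, adjusted p = 0.0583) and -0.70 for Il12a (SE 0.442, adjusted p = 0.283). Il12b and Il23a had larger falls than Ebi3 but also larger errors, so the threshold does not set the IL-27 chains apart from them. The median was -2.06 over the members and 0.03 over all genes. These calls changed when single libraries were left out. Without any 1 of the libraries of group D no member was a DEG. Adjusted p-values were then between 0.0245 and 0.0280 for Il27 and between 0.0405 and 0.0452 for Ebi3. Their log2 fold changes stayed between -3.08 and -2.82 for Il27 and between -1.66 and -1.47 for Ebi3. The share of all genes called in these fits is not given here, so the lost calls cannot be read as particular to the members. Ebi3 also missed the threshold without replicate 1 or replicate 2 of group B (adjusted p = 0.0153 and 0.0130). Conversely, Il12b passed without replicate 3 of group B (log2 fold change -2.68, adjusted p = 0.00588) and Il23a without replicate 2 (log2 fold change -2.50, adjusted p = 0.00443), each the lowest library of its group. DESeq2 called 4 of the 5 members, all except Il12a and all lower, against 14.1% of all genes called in either direction. In 2 of the 3 libraries of group B the fibroblast markers summed to 594 CPM or more, against at most 30.0 CPM in group D, and their part in these differences was not tested.

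Groups C and A, those with low subunit RNA, gave no DEG among the members and none among the 14701 genes tested (0%), although 3624 genes had an unadjusted p below 0.05. Even Lyz2, with a log2 fold change of -10.09 (adjusted p = 0.0224), and Tlr4, at -2.02 (adjusted p = 0.0402), were not called. The lack of DEGs thus does not mean that these groups were alike. As headed, this is the response of tlr4f/f BMDMs to LPS, and with the headings exchanged the genotype difference without LPS. Il12a, Il12b and Il23a did not pass the filter on low counts in these libraries. Il27 had a log2 fold change of -0.57 (SE 0.480, adjusted p = 0.506) and Ebi3 of -1.09 (SE 0.154, adjusted p = 0.0474). The Ebi3 levels of 15.3 ± 1.36 against 33.1 ± 5.77 CPM (SD, n = 3) did not overlap. Ebi3 was called by DESeq2, which called 3.16% of all genes, and with an adjusted p below 0.05, which called 0.626%. Il12b had 9 against 40 summed counts, but its libraries overlapped, since group A replicate 3 had 0.

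The interaction of genotype and LPS over all 12 libraries asks whether the change by LPS differed between the genotypes, and its value does not depend on the reading. No member was a DEG, against 1.04% of 15775 genes, and 3706 genes had an unadjusted p below 0.05. Il27 came nearest, with a log2 difference of -2.36 (SE 0.588, adjusted p = 0.0386), and was the member called by DESeq2, which called 4.08% of all genes, and with an adjusted p below 0.05, which called 3.99%. For Ebi3 it was -0.50 (SE 0.316, adjusted p = 0.376). The errors of the other members were between 1.51 and 1.79 log2 units, so that differences of several fold would not have been detectable at this spread. Their values were 2.15 for Il12a (adjusted p = 0.439), -0.41 for Il12b (adjusted p = 0.917) and -4.21 for Il23a (adjusted p = 0.185). The Il23a value rested on replicate 1 of group C, without which it was -0.44 (adjusted p = 0.841).

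Since the cytokines are dimers, RNA levels of partner chains were compared as CPM per kb of transcript. In group B, Il27 was at 299 ± 123, Ebi3 at 176 ± 55.1, Il12b at 171 ± 112, Il12a at 9.40 ± 5.71 and Il23a at 1.32 ± 0.862 CPM per kb (SD, n = 3). In group D, Ebi3 was at 57.5 ± 8.65, Il27 at 38.7 ± 6.95, Il12b at 36.7 ± 14.5, Il12a at 5.78 ± 1.55 and Il23a at 0.317 ± 0.0370 CPM per kb. The shared Il12b chain was thus above both of its partners in all 6 libraries, and Il23a was the lowest member. The ratio of Il12b to Il12a was 13.0, 34.9 and 9.54 in replicates 1 to 3 of group B and 8.89, 6.62 and 3.88 in group D. Il12b over Il23a was far higher and more variable, at 104, 759 and 28.2 and at 111, 174 and 67.3.

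For IL-27, the ratio of both chains differed between the libraries of these groups. The value of this ratio, and so its distance from 1, depends on the transcript row and length used for each gene. The ratio of Il27 to Ebi3 was 1.93, 1.66 and 1.40 in group B and 0.596, 0.746 and 0.680 in group D, so that Il27 exceeded Ebi3 in every library of the first group and lay below it in every library of the second. On the log2 scale the mean difference was -1.30 for Il27 over Ebi3 and -1.41 for Il12b over Il12a. Both had an exact permutation p of 0.1, two-sided, the smallest that 3 against 3 libraries allow, and an adjusted p of 0.3 over the 6 ratios compared. The other 4 ratios overlapped between the groups, with permutation p-values between 0.2 and 0.9. In group A, where Il27 was at 0.970 and Ebi3 at 28.3 CPM per kb, Ebi3 RNA was above Il27 RNA as in group D.

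**Figure D3:**
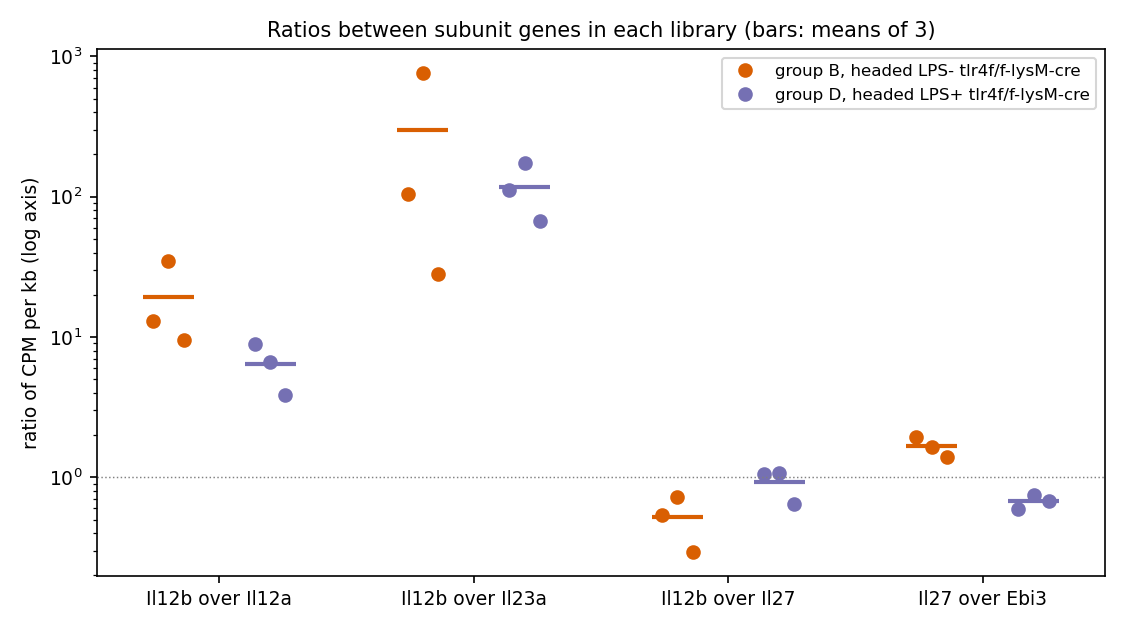
Ratios of CPM per kb between subunit genes (log axis) in each library of groups B and D, with bars at the means of 3 libraries and a dotted line at 1. The ratio of Il27 to Ebi3 lies above 1 in the 3 libraries of group B and below 1 in the 3 libraries of group D.

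Of the 5 receptor genes, only Il23r and Il6st were DEGs in any comparison. The share of all genes called was between 0% and 21.7%, depending on the comparison. Il23r, which encodes the chain particular to the IL-23 receptor, had 0 counts in all 6 libraries of groups A and C, 127, 138 and 103 in group B and 11, 12 and 13 in group D. It was thus detected only in the groups where Il23a was higher, and at low counts in group D. It was at least 70.3-fold higher in group B than in group A (adjusted p = 0.00128). It was at least 5.62-fold higher in group D than in group A (adjusted p = 0.00637) and at least 4.57-fold higher than in group C (adjusted p = 0.000363). In these comparisons with groups A and C, Il23r passed the filter on low counts only through group B or D. Its higher direction there was thus largely set by that filter. Between groups B and D it was lower in D and fell by 3.62 on the log2 scale (SE 0.291, adjusted p = 0.00113).

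Il6st, which encodes gp130, a signalling chain of the IL-27 receptor, went the other way. It was between 78.9 and 105 CPM in group A and between 109 and 133 CPM in group C, against 28.4 to 36.9 CPM and 35.6 to 41.5 CPM in groups B and D. Il6st fell by 1.29 (SE 0.130, adjusted p = 0.00101) on the log2 scale in group D against group A. Against group C it fell by 1.65 (SE 0.0928, adjusted p = 1.62e-07), and from group A to group B it fell by 1.54 (SE 0.179, adjusted p = 0.00166). The other receptor genes passed in no comparison. Il12rb1, the receptor chain shared by IL-12 and IL-23, had a mean of 2.49 CPM in group B and at most 0.384 in the others. Il12rb2, the second chain of the IL-12 receptor, had means between 1.30 and 3.52 CPM, and Il27ra, which pairs with gp130, between 1.53 and 6.63 CPM. Il27ra had its higher means in groups C and D, where its lowest library had 4.69 CPM against at most 2.53 CPM in groups A and B. Il12rb2 and Il27ra overlap Serbp1 and Palm3 on the opposite strand.

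The genes that act around these cytokines were counted by their roles. Among all genes tested in group D against group A, 6.92% were DEGs with higher values. In group D against group A, 1 of the 5 kinases and STATs reported here was a DEG with higher values, namely Jak2, a kinase of the IL-12 and IL-23 receptors (log2 fold change 3.33, adjusted p = 0.000128). Of 11 positive regulators of the subunit genes, 6 were DEGs with higher values and none with lower. They were the NF-kB subunits Rel (2.52) and Nfkb1 (2.62), Irf1 (2.59), Cebpb (1.50), the NF-kB cofactor Nfkbiz (3.82) and Batf (3.70), with adjusted p-values between 0.000202 and 0.00291. Negative regulators rose too, 3 of 5, with Bcl3 at 2.13, Atf3 at 1.88 and Maf at 1.34 (adjusted p-values between 0.00255 and 0.00817). Of the 6 cytokines that act with or follow the family, 5 could be tested and 4 rose, Il18 by 3.86, Il15 by 2.66, Il6 by 8.67 and Il1b by 9.45 on the log2 scale (adjusted p-values between 0.000356 and 0.00437). Ifng, the cytokine that IL-12 induces in T and NK cells, had at most 5 counts in any library and was not tested.

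The negative regulators lost all 3 calls without any 1 of the group D libraries, and the receptors kept 0, 0 and 1 of 2 calls without replicates 1, 2 and 3 of that group. The cytokines then had 2 calls in place of 4, and the positive regulators had 3 in place of 6 without its replicate 2. The share of all genes called in these fits with fewer libraries is not given here.

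The counts of the same lists were taken in the comparisons whose name depends on the headings. Of all genes tested, 10.8% were DEGs with higher values in group D against group C and 9.25% in group B against group A. Between group D and group C, DEGs with higher values were 3 of the 5 kinases and STATs, 6 of the 11 positive regulators, all 5 negative regulators and 4 of the 5 cytokines tested. Nfkbiz at 5.65 and Batf at 4.33 had the largest changes among the positive regulators, and Il10, an inhibitor of Il12b transcription, rose by 3.05 (SE 0.199, adjusted p = 4.21e-08). In group B against group A the counts were 4 of 5, 8 of 11, 4 of 5 and 4 of 5, with Jak2 at 4.68 and Il10 at 5.87 on the log2 scale. Between groups A and C no gene tested was a DEG, so none of these lists held one.

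Where group D was compared with group B, every DEG of these lists was lower, as for the members. Of all genes tested, 3.65% were DEGs with lower values. None of the DEGs of these lists was called without any 1 of the group D libraries. They were Jak2 (-1.35), Stat3 (-1.81), Cebpb (-1.27), Nfkbiz (-1.14), Bcl3 (-1.40), Nfil3 (-1.41), Il15 (-1.45) and Il10, which had the largest change at -4.34 (SE 0.382, adjusted p = 0.00135). Il10 was at 123 ± 52.8 CPM in group B and at 6.08 ± 1.08 CPM in group D (SD, n = 3). Jak2 and Stat3 were also the genes of these lists with a called interaction, at -1.53 (adjusted p = 0.00236) and -1.34 (adjusted p = 0.00813). The interaction was called for 1.04% of all genes. Without any 1 library of group C or D neither interaction was called.

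**Figure D4:**
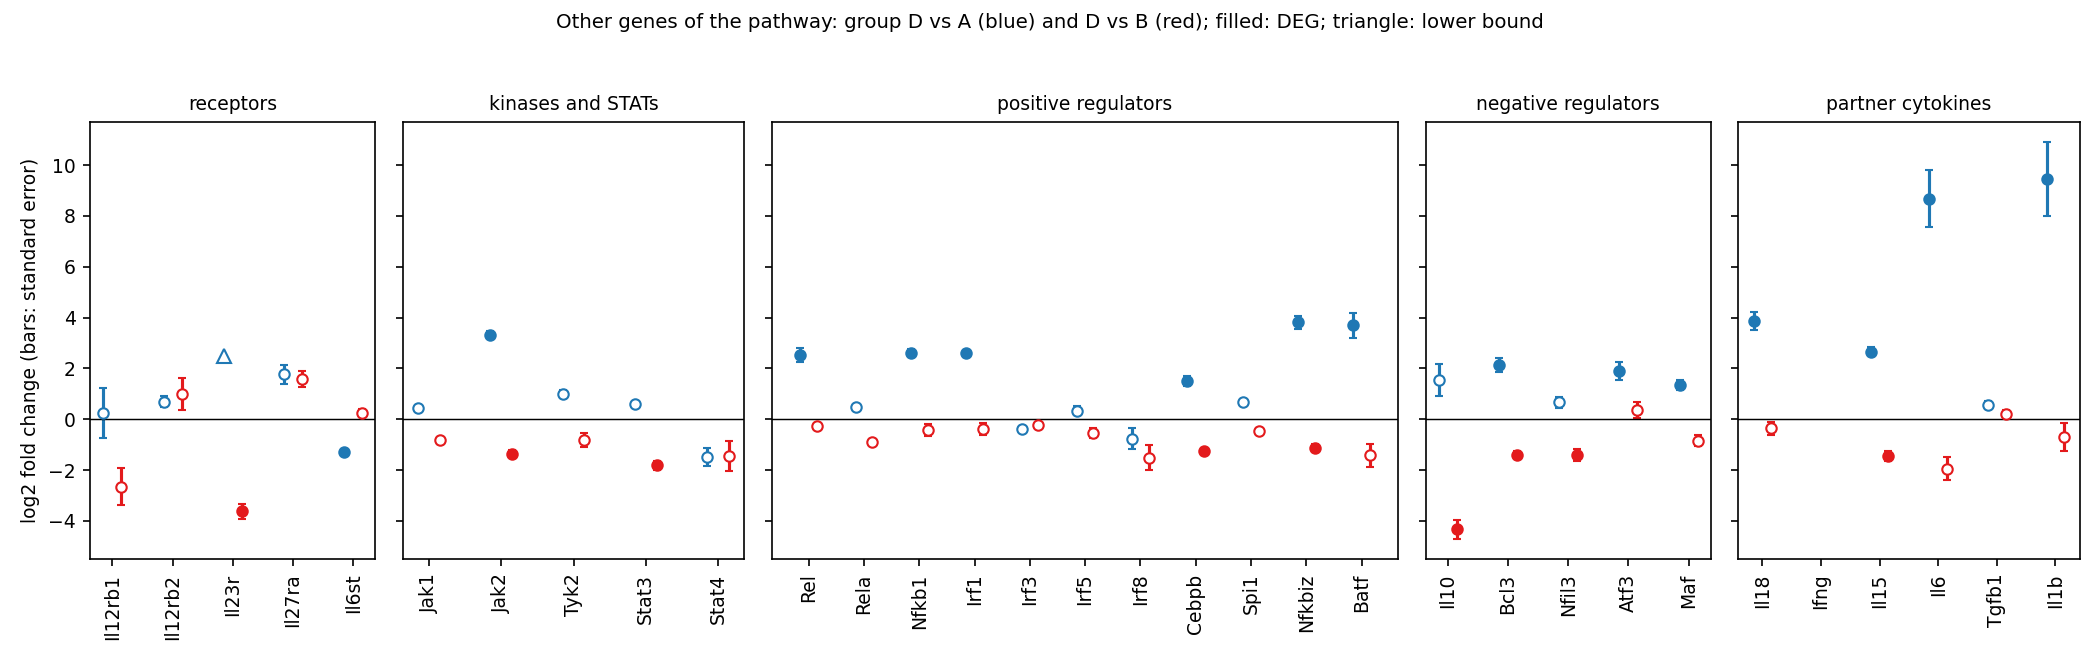
Log2 fold changes, with bars of 1 standard error, of receptor, kinase, STAT, regulator and cytokine genes in group D against group A (blue) and against group B (red). Filled symbols are DEGs and the triangle is a lower bound; Il6 and Il1b have the highest blue values at 8.67 and 9.45, and Il10 has the lowest red value at -4.34.

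The genes whose pattern over the 12 libraries was most like each member were found by the root mean square difference of log2 CPM, with each gene centred on its own mean, among 15775 genes. Ebi3 had the closest neighbours, the interferon-induced gene Ifi35 (0.218), the NF-kB inhibitor gene Nfkbib (0.247) and Trex1 (0.255). Il12b had the most distant, Shisa3 (0.788), Il6 (0.903) and Acod1 (0.951), the enzyme that makes itaconate. Values were centred but not scaled, so the distance grows with the size of a gene's changes and with noise at low counts. Il12b changed far more than Ebi3, so their distances do not rank how alike the patterns are. Nearest to Il12a were H2-M2 (0.476) and Clec4e (0.501), nearest to Il27 were Pde10a (0.497) and Upp1 (0.556), and nearest to Il23a were Styk1 (0.560) and Gm42250 (0.632). The third neighbours were LOC102634900 for Il12a (0.618), Adamts4 for Il27 (0.570) and Kdm6b for Il23a (0.682).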

How the data were processed

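Reads had been trimmed with Trimmomatic 0.36, mapped by HISAT2 on mm10 and counted by HTSeq by the authors, per the paper and the submitters' processing notes. The deposited values are whole-number read counts for 115140 transcript rows of 43131 genes, not normalized, with transcript lengths. Rows of a gene share reads, so only the row with the highest total was used. The other rows of Il12a held 92.28% and 80.43% of its counts, and those of Il27 and Ebi3 63.45% and 63.29%.

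Each comparison was fitted on its 6 libraries, or on all 12 for the interaction, with edgeR 4.0.16 in R 4.3.3 (filterByExpr, TMM, robust quasi-likelihood test), and p-values were adjusted by Benjamini-Hochberg over all genes tested. The thresholds for DEGs were those of the study, which used DESeq. Folds against a group at 0 are bounds from 3 counts per library. Intervals are exact binomial at 95%. Bounds and intervals cover counting error only, as PCR copies of a molecule cannot be told from separate molecules. Libraries were grouped by column heading, and the labels give no batch. Alternatives were DESeq2 1.42.0, voom of limma 3.58.1, RLE factors, no filter beyond 1 count, a single fit, a replicate block, sums over transcript rows, an adjusted p below 0.05, leaving out each library, and the headings of groups B and C exchanged. Fits were also run on simulated counts, but the outcome is not given here and no result above rests on it.

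The members, gene lists and alternatives were chosen with earlier results of these data known. Named genes were the members, the receptors, DEGs of the other lists and the 3 genes nearest in pattern to each member at a prior count of 2. Positions are from GENCODE M21 (mm10), and promoter sequences from RefSeq (GRCm38.p6), where Il12a, Il12b and Ebi3 were matched. One gene of the list of kinases and STATs is not reported here. The kidney experiments were not analysed here.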

Additional observations from a re-analysis of the deposited data

How the results depend on the processing

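Exchanging the headings of groups B and C renames comparisons. LPS in tlr4f/f is then B against A, with 5 members called in place of 0, and its reversed log2 fold changes are 8.25 for Il27 and 2.62 for Ebi3. LPS in the Cre genotype is then D against C, with 5 called in place of 2, and log2 fold changes of 11.36 for Il12a (fitted against 0 counts, so dependent on the prior count), 10.46 for Il12b, 3.53 for Il23a, 5.89 for Il27 and 2.13 for Ebi3. The genotypes with LPS are then D against B, with 2 called in place of 5, and values of -0.70 for Il12a, -2.20 for Il12b, -2.06 for Il23a, -2.94 for Il27 and -1.60 for Ebi3. Without LPS they are C against A, with 0 called in place of 5, at -0.57 for Il27 and -1.09 for Ebi3.

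As headed, DESeq2 called 1 member in C against A, 4 in D against B and 1 in the interaction, and an adjusted p below 0.05 gave 1 in C against A, 3 in D against B and 1 in the interaction. Sums over transcript rows left 1 in D against B, since Ebi3 missed the threshold (adjusted p = 0.0112). With each library left out in turn, between 0 and 3 members were called in D against B and between 3 and 5 in D against A, and the log2 interaction of Il12b ranged from -1.17 to 0.14. Apart from the shares given above for DESeq2 and the looser threshold, the share of all genes called under these alternatives is not given here. A change in the count of members can thus not be told from a general change in calls. Over all alternatives the interaction ranged from -5.79 to -0.44 for Il23a and from 0.64 to 3.21 for Il12a, without a call. Il12b missed the threshold in B against A without the filter (adjusted p = 0.0118) and in D against A by voom (adjusted p = 0.0474). Il23a missed it in D against C with sums over transcript rows (adjusted p = 0.0168) and in a single fit (adjusted p = 0.0281). The causes were not tested.

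In no comparison did all 3 same-numbered pairs have a correlation of deviations over 0.1 (range -0.0379 to 0.472), so the numbers were not used as pairs. In D against C, however, all 3 correlations were positive (0.0584, 0.0726 and 0.19) and each library correlated best with its own number. In B against A all 3 were positive as well (0.472, 0.34 and 0.0143), and replicates 1 and 2 correlated best with their own number. With the headings exchanged, both comparisons set LPS-treated against untreated BMDMs of the same genotype. These are hints from the data and not the design, and whether same-numbered libraries were paired cannot be told. The replicate block gave 3 members in D against A and 4 in B against A, and as many as the fit without it elsewhere. The share of all genes called with the block is not given here either. With a prior count of 0.5 the nearest genes of Ebi3 were the same 3, while at least 1 of 3 changed for each other member. Counts of at most 100 per library limit what Il23a can show.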
